A study of Rattus norvegicus with 23 samples.

Results

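The genes described here are 6 transcriptional targets of the tumor suppressor p53, Phlda3, Cdkn1a, Mdm2, Ccng1, Gadd45a and Bax, measured by RNA sequencing of gastrocnemius muscle of 23 Wistar rats. They were taken by symbol from a table of 18903 named genes. Each symbol stood for 1 gene, and all 6 were among the 13365 genes that passed the filter on low counts. Phlda3 was chosen because earlier results of these counts had shown a difference by diet, and Cdkn1a and Gadd45a because of a difference by sex. Differences by diet and by sex are therefore given for these 6 genes as a description with a standard error and without a p value. The interaction of sex and diet, the covariation among rats and the other p53 targets were not used in that choice and were tested.

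Rats of 4 groups were compared, with 1 library from each rat. They were 6 male rats on a high fat, high sucrose (HFHS) diet (Male HFHS), 6 male rats on chow (Male Chow), 6 female rats on the HFHS diet (Female HFHS) and 5 female rats on chow (Female Chow). Diets began at 4 weeks of age and lasted 14 weeks at a housing temperature of 30 °C. Fat made up 39% of the HFHS diet against 17% of chow, and sucrose 45 g against 5 g per 100 g. The ovaries of females were removed when they were 12 weeks old, and 0.5 µM estradiol was given in drinking water. The study also had sham-operated females, and the labels do not say whether any of the 11 females sequenced were among them. The comparison by sex thus sets intact males against females whose hormones were, as far as stated, replaced. Total counts per rat were 29645560 to 50170740 in Male HFHS, 32023984 to 39261382 in Male Chow, 21152241 to 44633229 in Female HFHS and 29337432 to 51305339 in Female Chow.

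Diet labels were in conflict for 3 females, whose sample titles and column codes name opposite diets. By title, rat 205 is HFHS and rats 224 and 225 are chow, and the codes state the reverse. The codes were used. An earlier comparison of these counts with the colours of a heat map in the paper had matched the columns under each male diet heading to libraries coded with the other diet. Every diet direction in males therefore rests on the deposited codes.

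The muscle samples also differed in transcripts of other cell types. Skeletal muscle markers summed to between 200851 and 288772 CPM (each count scaled to the size of its library) in every rat, so the labelled tissue was borne out. Averaged over the diets, all 22 hepatocyte markers were lower in males by the test described below, against 5.17% of all genes. Their summed level was 37.1 to 58.7 CPM in Male HFHS, 37.9 to 78.7 CPM in Male Chow, 44.1 to 494 CPM in Female HFHS and 295 to 562 CPM in Female Chow. None of these markers was at 0 in every rat. Alb, the albumin gene of liver, reached 15.4 CPM in the highest male, and 2 of 11 females (rats 202 and 209) were at or below that level. Averaged over the diets, endothelial markers were higher in males (6 of 6 tested, against 8.97% of all genes in either direction). On HFHS 5 of 6 passed and on chow 0, against 4.83% and 1.72% of all genes. Endothelial sums were 278 to 333 CPM in Male HFHS and 249 to 308 CPM in Male Chow. They were 180 to 255 CPM in Female HFHS and 212 to 263 CPM in Female Chow. Among the macrophage (10), adipocyte (5) and fibroblast (6) markers tested, 0 passed by diet or by sex. Over all genes 0.0524% passed by diet and 8.97% by sex, averaged over the other factor. The part of these cell types in the results below was not tested, apart from the fits with the hepatocyte level as a covariate. In bulk tissue, fewer cells of a type and less RNA per cell cannot be told apart.

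As background, p53 is a transcription factor that is kept low by the ubiquitin ligase Mdm2 and is stabilized by DNA damage and other stress. It then binds pairs of a short half-site near its target genes and raises the transcription of genes that halt the cell cycle, repair DNA, alter metabolism or start apoptosis. In postmitotic muscle fibers several of these targets also respond to other regulators, and Cdkn1a and Gadd45a are well known to rise in denervated, fasted or aging muscle.

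The 6 genes cover separate arms of this response. Phlda3 encodes a protein with a pleckstrin homology domain that competes with the kinase Akt for membrane lipids and thereby represses Akt signaling. Cdkn1a encodes p21, an inhibitor of cyclin-dependent kinases, and Gadd45a encodes a small stress protein that binds cell cycle and kinase partners. Ccng1 encodes cyclin G1, which recruits the phosphatase PP2A to Mdm2. Mdm2 is at once a target and the main inhibitor of p53, and Bax is a pore-forming protein of the BCL2 family that permeabilizes mitochondria in apoptosis. In the coordinates of the deposited table (rn6), they lie at chr13:52588917-52592001 on the plus strand (Phlda3, ENSRNOG00000009068), chr20:6351458-6358864 on the plus strand (Cdkn1a, ENSRNOG00000000521) and chr7:60719066-60743328 on the minus strand (Mdm2, ENSRNOG00000006304). The others lie on the minus strand at chr10:25903911-25910325 (Ccng1, ENSRNOG00000003256), chr4:97782512-97784842 (Gadd45a, ENSRNOG00000005615) and chr1:101451802-101457207 (Bax, ENSRNOG00000020876). None of the 6 overlaps another gene of the table.

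Promoters are shown for 4 of the genes, because p53 acts through its half-sites and the genes differed in them. The 250 bases upstream of the start were taken from RefSeq (build GRCr8), which matched 5 of the 6 genes, Bax being the gene without an entry. For Cdkn1a the RefSeq gene spans 10554 bases and the counted gene 7407, so their starts may differ. Each window was searched for 2 copies of the 10-base p53 half-site consensus separated by 0 to 13 bases. The consensus is its own reverse complement, so 1 search covers both strands. Capitals mark the best pair of half-sites, and the bases between them are the spacer. Where pairs tied in mismatches, the pair farthest upstream was marked. Each sequence runs 5′ to 3′ on the strand of the gene.
Cdkn1a (chr20:7150682-7150931, plus strand): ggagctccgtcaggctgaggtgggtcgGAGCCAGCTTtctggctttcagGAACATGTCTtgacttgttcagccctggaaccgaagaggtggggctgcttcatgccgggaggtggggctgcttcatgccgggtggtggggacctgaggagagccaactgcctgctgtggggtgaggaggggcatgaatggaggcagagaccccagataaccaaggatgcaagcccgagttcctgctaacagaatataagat
Ccng1 (chr10:25684877-25685126, minus strand): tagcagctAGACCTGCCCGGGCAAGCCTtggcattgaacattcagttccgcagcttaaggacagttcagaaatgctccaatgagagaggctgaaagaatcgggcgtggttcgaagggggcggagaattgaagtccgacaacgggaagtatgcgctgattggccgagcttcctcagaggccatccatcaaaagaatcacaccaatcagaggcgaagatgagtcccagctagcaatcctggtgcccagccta
Gadd45a (chr4:97486800-97487049, minus strand): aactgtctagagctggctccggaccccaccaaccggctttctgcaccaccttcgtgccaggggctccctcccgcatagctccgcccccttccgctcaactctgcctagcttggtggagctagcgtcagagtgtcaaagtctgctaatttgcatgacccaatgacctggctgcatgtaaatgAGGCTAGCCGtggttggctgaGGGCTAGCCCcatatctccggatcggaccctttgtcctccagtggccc
Phlda3 (chr13:49744753-49745002, plus strand): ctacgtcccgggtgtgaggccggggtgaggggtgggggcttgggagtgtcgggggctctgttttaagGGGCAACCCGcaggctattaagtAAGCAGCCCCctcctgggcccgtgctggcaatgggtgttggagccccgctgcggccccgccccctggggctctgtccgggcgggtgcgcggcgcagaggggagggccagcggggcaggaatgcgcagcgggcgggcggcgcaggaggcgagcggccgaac

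A pair with at most 1 mismatch was present in 3 of the 5 windows, those of Cdkn1a, Ccng1 and Gadd45a. The same was true of 268 of 33469 rat promoters (0.801%) and of 1 of 43 promoters of other p53 targets (2.33%, Pml). With a limit of 2 mismatches it was still 3 of the 5 windows, beside 8.17% of all promoters and 5 of 43 of the other targets (11.6%). The limit of 1 mismatch was chosen after the sequences had been seen, so nothing is read from these shares. In Cdkn1a the marked pair began 223 bases upstream with a spacer of 12 bases. Its second half-site also forms a pair without a spacer with the bases directly after it. That pair has 1 mismatch as well, so the search does not choose between them. In Ccng1 the half-sites were adjacent and began 242 bases upstream, and in Gadd45a they began 69 bases upstream with a spacer of 11 bases. In Phlda3 the best pair had 4 mismatches and in Mdm2 it had 5, which says only that closer matches do not lie in these windows. These are matches of letters, and no binding was measured.

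Phlda3 was higher with the HFHS diet in both sexes. In Male HFHS rats it ranged from 45.5 to 85.9 CPM with a median of 68.4, against 30.8 to 50.3 CPM with a median of 39.3 in Male Chow rats. In Female HFHS rats it ranged from 47.5 to 67.9 CPM with a median of 61.9, and the 5 Female Chow rats had 32.9, 34.0, 39.9, 48.3 and 26.1 CPM. The groups overlapped in each sex by a small margin, with male 102 at the low end of the HFHS males and female 228 at the high end of the chow females. Group means were 67.3 ± 15.4 CPM in Male HFHS and 39.7 ± 6.74 CPM in Male Chow (SD, n = 6 each). They were 59.4 ± 8.56 CPM in Female HFHS (SD, n = 6) and 36.2 ± 8.35 CPM in Female Chow (SD, n = 5).

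The fitted difference of Phlda3 by diet was a log2 of 0.76 ± 0.16 (SE) in males and 0.72 ± 0.16 in females. Averaged over the sexes it was 0.74 ± 0.11, a 1.67-fold higher level on HFHS. Phlda3 was among the 7 genes (0.0524% of 13365) with an adjusted p under 0.05 for this contrast, and the other 5 genes were not. Since Phlda3 was chosen by this contrast, nothing is read from that count. In neither sex alone did any of the 6 genes pass, where 0.0224% of all genes passed in males and 0.015% in females. Without male 102, Phlda3 passed in males with a log2 of 0.85. By sex, the difference was 0.16 ± 0.11 and did not pass.

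The Phlda3 difference kept its size without the 3 females of conflicting diet (0.74) and when each rat was left out in turn (0.70 to 0.80). With the diets of the sample titles it was 0.54 ± 0.15 and no longer passed. If the male codes were exchanged it was -0.02 ± 0.11, since males and females then moved in opposite directions. Hepatocyte transcripts were also lower on HFHS (21 of 22 markers with a negative log2, 0 passed). With the hepatocyte level as a covariate the difference was 0.72 ± 0.14 and no longer passed. In that fit 1 of 13365 genes passed by diet, against 7 without the covariate. Within groups, Phlda3 and the hepatocyte level had an r of -0.06 over the 23 rats.

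**Figure D1:**
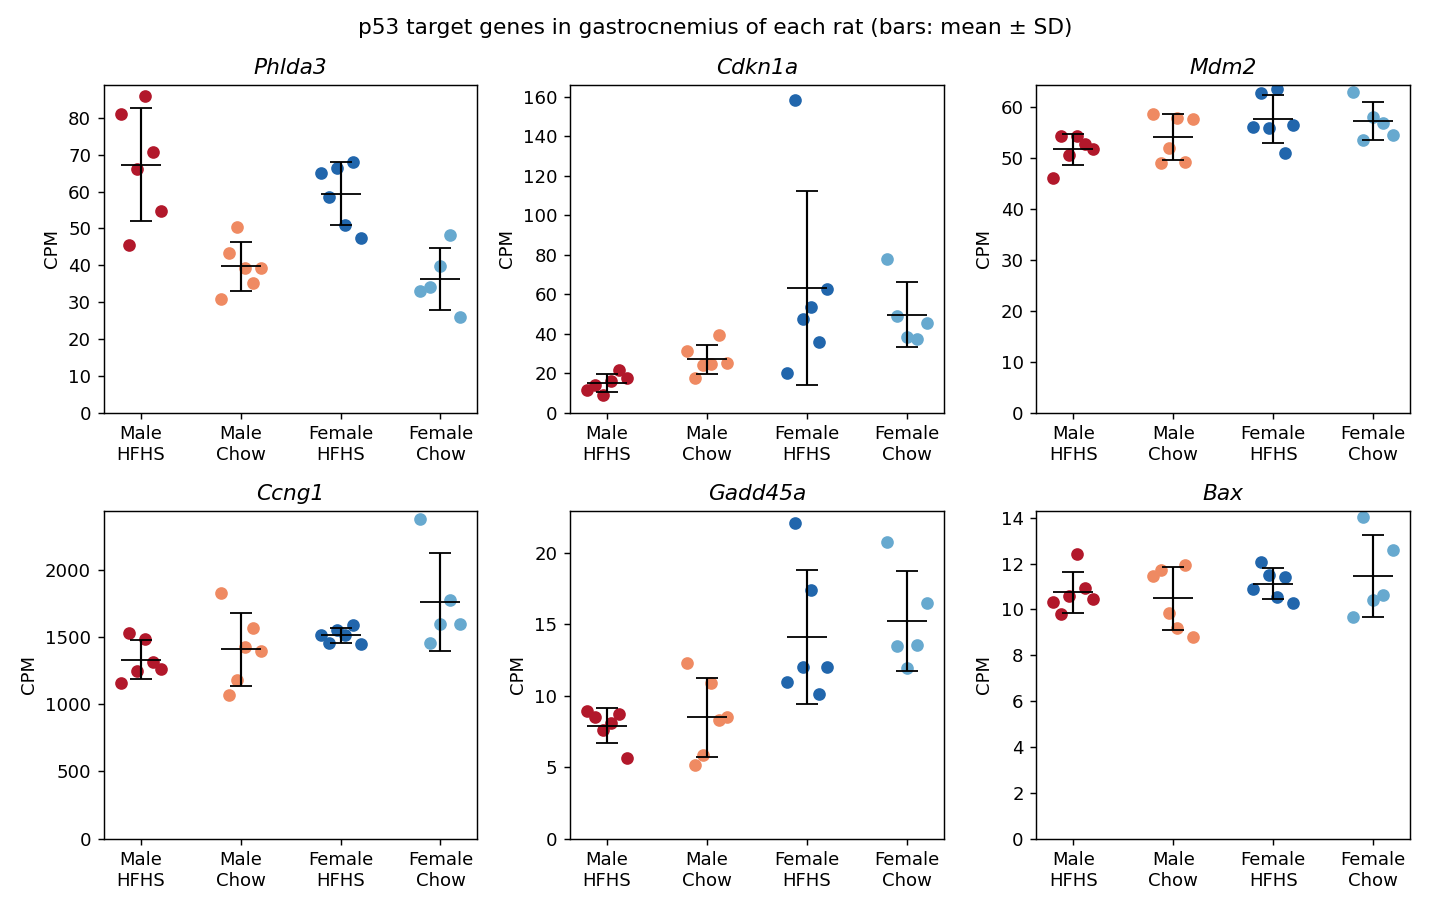
Each panel shows 1 gene, with CPM per rat (points) in Male HFHS, Male Chow, Female HFHS and Female Chow rats and the mean ± SD as bars. Phlda3 is higher in the HFHS groups of both sexes, Cdkn1a and Gadd45a are lower in males, and 1 Female HFHS rat stands apart in Cdkn1a at 159 CPM.

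Cdkn1a was lower in males. The fitted gap was larger on the HFHS diet, although the test of the interaction, given below, was not passed. Male HFHS rats had 9.07 to 21.8 CPM (median 15.1), against 19.9 to 159 CPM (median 50.5) in Female HFHS rats. Male Chow rats had 17.8 to 39.6 CPM (median 25.1), and the Female Chow rats had 77.9, 48.9, 38.6, 37.6 and 45.4 CPM. Males and females overlapped slightly on each diet, through female 201 on HFHS and male 116 on chow. Means were 15.1 ± 4.54 CPM in Male HFHS, 27.1 ± 7.46 CPM in Male Chow (SD, n = 6 each), 63.0 ± 49.1 CPM in Female HFHS (n = 6) and 49.7 ± 16.5 CPM in Female Chow (n = 5). Female 202 at 159 CPM carried much of the Female HFHS mean, the next female on that diet being at 62.6 CPM. The fitted difference by sex was a log2 of -1.47 ± 0.27 (SE), or 2.77-fold lower in males. On HFHS it was -2.06 ± 0.38, or 4.18-fold lower in males, and on chow it was -0.87 ± 0.38.

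Gadd45a was lower in males by a similar log2 on each diet. Male HFHS rats had 5.63 to 8.90 CPM (median 8.27), against 10.1 to 22.1 CPM in Female HFHS rats, and these groups did not overlap. Of all genes tested, 3.11% did not overlap in that comparison. Male Chow rats had 5.17 to 12.3 CPM (median 8.37), and the Female Chow rats had 20.7, 13.5, 11.9, 13.5 and 16.5 CPM. Means were 7.90 ± 1.21 CPM in Male HFHS, 8.48 ± 2.76 CPM in Male Chow (SD, n = 6 each), 14.1 ± 4.68 CPM in Female HFHS (n = 6) and 15.2 ± 3.49 CPM in Female Chow (n = 5). The fitted difference by sex was a log2 of -0.84 ± 0.15 (SE), or 1.78-fold lower in males. It was -0.82 ± 0.21 on HFHS and -0.85 ± 0.22 on chow. By sex, these 2 of the 6 genes passed, where 8.97% of all genes did. On chow Gadd45a passed (1.72% of all genes), and on HFHS both did (4.83%). Both genes were chosen by their difference by sex, so nothing is read from these counts.

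Both sex differences held when each rat was left out in turn, at -1.56 to -1.20 for Cdkn1a and -0.89 to -0.74 for Gadd45a. Each was smallest without female 202. Hepatocyte transcripts moved with sex as well, sex accounting for 56.4% of the variance of their level. With that level as a covariate, Cdkn1a differed by sex by -2.35 ± 0.35 and still passed, and Gadd45a differed by -1.08 ± 0.25 and no longer passed. In that fit 58 of 13365 genes passed by sex, against 1199 without the covariate, so most genes lost their call. Female 202, with the highest Cdkn1a and Gadd45a values of all rats, had 1.13 CPM of Alb. Within groups, Cdkn1a and the hepatocyte level had an r of -0.54 and a rho of -0.24 over the 23 rats.

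Ccng1, Mdm2 and Bax did not pass by diet or by sex. Ccng1 averaged 1332 ± 146 CPM in Male HFHS, 1409 ± 270 CPM in Male Chow (SD, n = 6 each), 1513 ± 54.8 CPM in Female HFHS (n = 6) and 1760 ± 361 CPM in Female Chow (n = 5). Female 205 had the highest value, 2375 CPM. Its difference by sex was a log2 of -0.25 ± 0.08, which missed the threshold over all rats. It passed in DESeq2, in limma-voom and in edgeR without any 1 of 5 rats (female 213 and males 102, 104, 111 and 116). By diet, Ccng1 differed by -0.15 ± 0.08, averaged over the sexes.

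Mdm2 averaged 51.6 ± 3.05 CPM in Male HFHS, 54.0 ± 4.50 CPM in Male Chow, 57.5 ± 4.72 CPM in Female HFHS and 57.1 ± 3.71 CPM in Female Chow. It was the steadiest of the 6 genes, with a within-group SD of 0.11 on the log2 scale against 0.62 for Cdkn1a. Bax averaged 10.7 ± 0.896 CPM in Male HFHS, 10.5 ± 1.38 CPM in Male Chow, 11.1 ± 0.673 CPM in Female HFHS and 11.5 ± 1.80 CPM in Female Chow. By diet, averaged over the sexes, Mdm2 differed by a log2 of -0.03 ± 0.05 and Bax by -0.01 ± 0.07. By sex, the differences were -0.12 ± 0.05 and -0.09 ± 0.07. None of these passed.

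**Figure D2:**
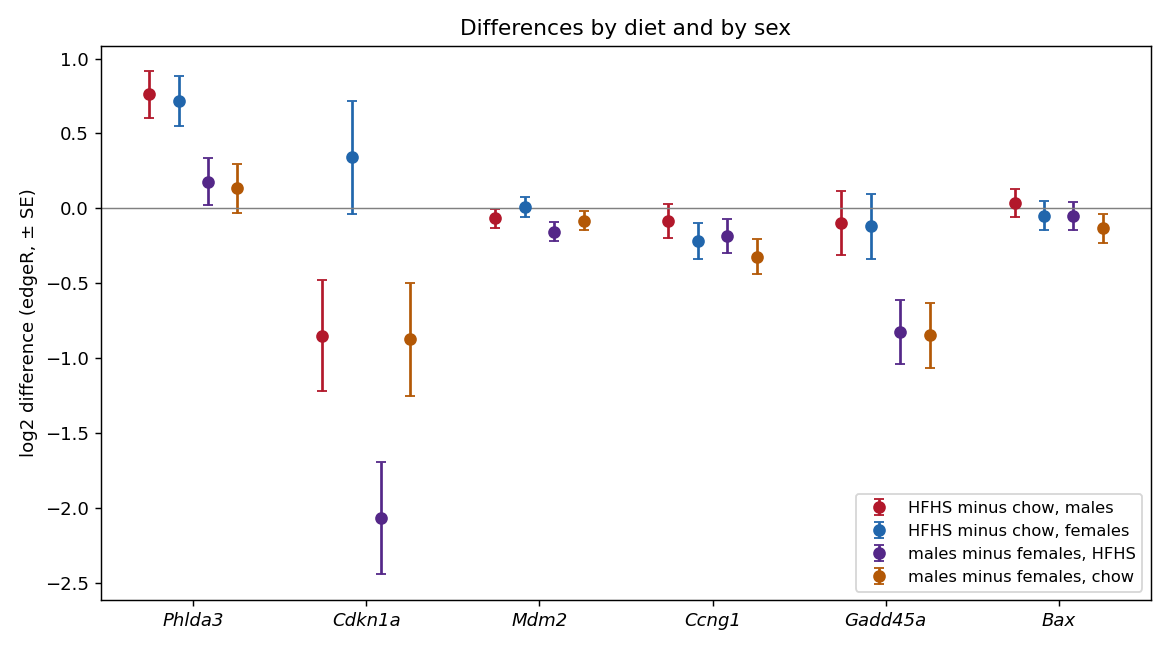
Fitted log2 differences (points) with SE (bars) from edgeR for each gene, for HFHS minus chow in males and in females and for males minus females on HFHS and on chow. Phlda3 lies above 0 by diet in both sexes (0.76 and 0.72), and Cdkn1a has its widest gap by sex on HFHS (-2.06).

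Whether the response to diet differed by sex was tested with the interaction term. By the edgeR quasi-likelihood test, 0 of the 6 genes passed, as did 0 of all 13365 genes (0%). At an unadjusted p under 0.05, 652 genes (4.88%) were found, Cdkn1a among them. In DESeq2, 1 of all genes passed, and in limma-voom 0 did. Cdkn1a had a diet difference of -0.85 ± 0.37 in males and 0.34 ± 0.38 in females, so its interaction was -1.19 ± 0.53 (edgeR adjusted p = 0.983). Without female 202, its diet difference in females was -0.17 and its interaction -0.67. With the hepatocyte level as a covariate, its diet difference was -1.12 ± 0.32 in males and -0.51 ± 0.39 in females. For Phlda3 the interaction was 0.04 ± 0.22 (adjusted p = 0.998), and for Gadd45a it was 0.02 ± 0.30 (adjusted p = 0.999). All interactions rest on the deposited male codes and were not fitted with these codes exchanged. Under exchanged codes Phlda3 would move in opposite directions in males and females, so its small interaction holds only if the codes are right. Those of Mdm2, Ccng1 and Bax lay between -0.08 and 0.14.

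Other p53 targets were then examined, from 5 lists that hold 55 genes, of which 48 could be tested. By diet averaged over the sexes, 0 of 48 passed, against 0.0524% of all genes, and 28 were higher and 20 lower on HFHS by sign. Their median log2 was 0.03, beside -0.01 over all genes, and 11 of 48 had an unadjusted p under 0.05, beside 9.77% of all genes. Pank1, a pantothenate kinase of coenzyme A synthesis, had the smallest p. It averaged 22.2 ± 3.46 CPM in Male HFHS, 16.8 ± 4.29 CPM in Male Chow, 20.1 ± 1.60 CPM in Female HFHS and 15.1 ± 1.69 CPM in Female Chow. Its difference by diet was 0.41 ± 0.09 (edgeR adjusted p = 0.138), which passed in DESeq2 and, in edgeR, without male 114 of the chow group. In neither sex alone did any of the 48 pass by diet, and the interaction gave 0 as well.

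By sex, 1 of the 48 passed, against 8.97% of all genes, with a median log2 of 0.06 beside -0.0003 over all genes. This was Polk, a translesion DNA polymerase, which was higher in males by 0.24 ± 0.07 (edgeR adjusted p = 0.0276). It no longer passed without male 112 of the chow group or male 105 of the HFHS group, where 0 of the 48 passed. On HFHS, Kitlg, the ligand of the Kit receptor, was higher in males by 0.38 ± 0.09 (adjusted p = 0.0151), at 21.8 ± 1.62 CPM in Male HFHS and 16.7 ± 2.13 CPM in Female HFHS. By function, Polk belonged to the 6 DNA repair genes and Kitlg to the 8 secreted and membrane genes. Of the 9 genes of cell cycle arrest, the 13 of apoptosis and autophagy and the 12 of metabolism and antioxidant defence, 0 passed in any contrast by diet or sex. In DESeq2, in limma-voom, with the diets of the titles and without the 3 females of conflicting diet, 4 of the other targets passed by sex. Of these, 3 were higher and 1 lower in males, and the genes in limma-voom were not all the same as in the other fits. Over all genes, 1611, 1357 and 1343 of 13365 passed by sex in the first 3 fits and 1043 of 13395 in the last. Nothing is read from the 4 beside these counts.

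**Figure D3:**
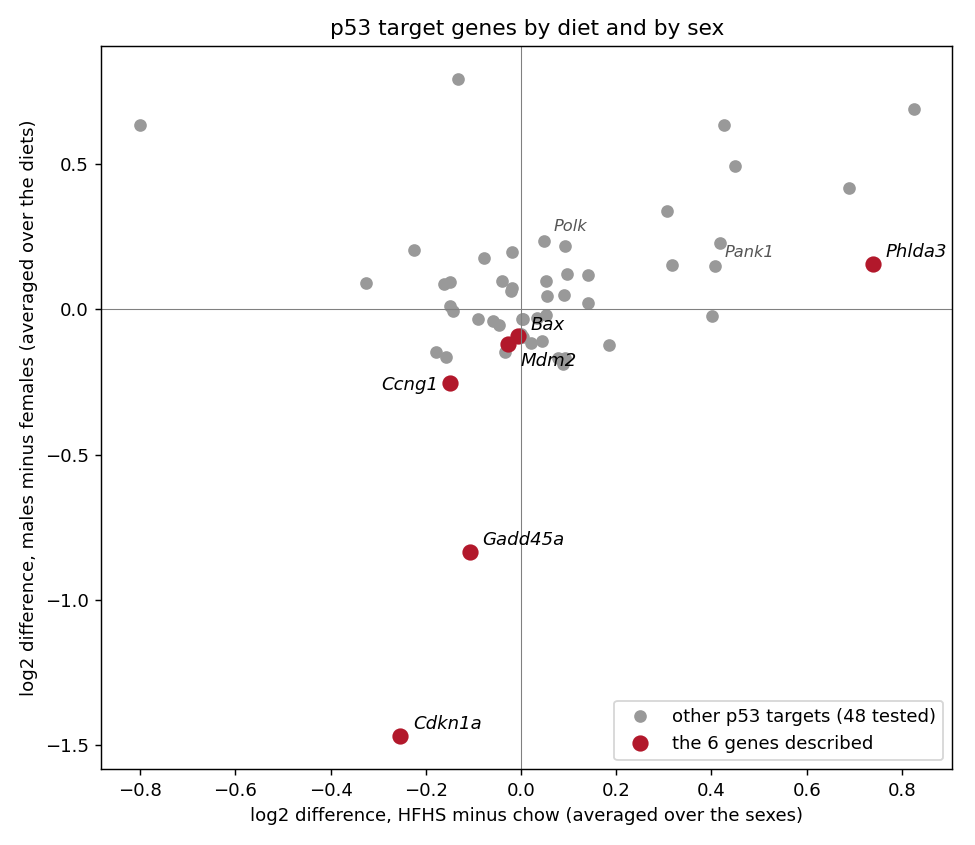
Each point is a p53 target, placed by its log2 difference by diet (x axis, HFHS minus chow, averaged over the sexes) and by sex (y axis, males minus females, averaged over the diets). The 6 genes described (red) include Phlda3 at 0.74 by diet and Cdkn1a and Gadd45a at -1.47 and -0.84 by sex, and the 48 other targets tested are grey.

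Regulators of p53 were examined from a list of which 15 genes could be tested. By sex, 2 passed, 1 of them lower and 1 higher in males, against 8.97% of all genes, and by diet 0 passed. Rchy1, a ubiquitin ligase of the pathway, was lower in males by a log2 of -0.20 ± 0.05 (edgeR adjusted p = 0.0209), and its position overlaps that of Thap6, so that reads of both may be mixed. Mdm4, the relative of Mdm2, averaged 9.23 ± 1.32 CPM in Male HFHS, 10.4 ± 1.39 CPM in Male Chow, 10.1 ± 0.545 CPM in Female HFHS and 9.54 ± 1.17 CPM in Female Chow. It did not pass in any contrast. These are messenger levels, and proteins were not measured in these libraries.

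Of 9 paralogs of the 6 genes tested, 1 passed by sex, close to the 8.97% of all genes, and 0 passed by diet, against 0.0524% of all genes. Gadd45b, a stress protein of the Gadd45a family, was higher in males by a log2 of 0.51 ± 0.15 (edgeR adjusted p = 0.0325), opposite in sign to Gadd45a. It averaged 12.3 ± 2.39 CPM in Male HFHS, 7.90 ± 1.25 CPM in Male Chow, 7.66 ± 2.12 CPM in Female HFHS and 6.21 ± 2.16 CPM in Female Chow. Gadd45g, the third of that family, passed on HFHS, where it was lower in males by -1.35 ± 0.34 (adjusted p = 0.0260). It averaged 18.5 ± 3.91 CPM in Male HFHS and 47.3 ± 14.5 CPM in Female HFHS. The p21 relatives Cdkn1b and Cdkn1c, the cyclin Ccng2 and the Bax relatives Bak1 and Bok did not pass in any contrast.

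Among 7 BCL2 family partners of Bax, 2 passed by sex, against 8.97% of all genes, and 0 by diet, against 0.0524%. Bcl2l1, which encodes the survival protein Bcl-xL, was lower in males by a log2 of -0.47 ± 0.12 (edgeR adjusted p = 0.0174). Bid, a BH3-only activator of Bax, was lower in males by -0.43 ± 0.13 (adjusted p = 0.0405). Of 19 proliferation genes, which belong to the cell cycle that p21 restrains, 0 passed in any contrast, against 8.97% of all genes by sex, 0.0524% by diet and 0% for the interaction.

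Genes induced by FoxO factors and glucocorticoids were included, since Cdkn1a and Gadd45a respond to these regulators in muscle. By sex, 5 of 16 passed, all lower in males, against 5.17% of all genes lower. Examples were Cebpd, a transcription factor of the C/EBP family (-0.80 ± 0.22, edgeR adjusted p = 0.0228), and Glul, the glutamine synthetase gene (-0.51 ± 0.13, adjusted p = 0.0127). The others were Mt2A, a metallothionein (-0.96 ± 0.25, adjusted p = 0.0179), and the Kruppel-like factors Klf15 (-0.24 ± 0.07, adjusted p = 0.0302) and Klf9 (-0.31 ± 0.09, adjusted p = 0.0360). On HFHS 5 passed, against 4.83% of all genes in either direction, with Per1, a clock gene, at -1.48 ± 0.40 (adjusted p = 0.0408) in place of Klf9. The list had a median diet difference of -0.22 in males and 0.30 in females, and its interaction was negative in 15 of 16 genes with 0 passed. Over all genes these medians were -0.01 in males and -0.001 in females. Among 10 denervation genes, 1 passed by sex, close to the 8.97% of all genes. It was Myog, the gene of the myogenic factor myogenin, lower in males by -0.58 ± 0.11 (adjusted p = 0.00142). By sign, 10 of 10 were higher on HFHS in females (median log2 0.32) and 10 of 10 had a negative interaction (median -0.27). In either contrast 0 passed, against 0.015% of all genes for diet in females and 0% for the interaction.

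Covariation among rats was examined after removal of each group mean, so that group differences do not enter. Of 15 pairs of the 6 genes, 4 passed by Pearson's r with an adjusted p under 0.05 over the 15 pairs, and 3 of these pairs held Gadd45a. Mdm2 and Gadd45a had an r of 0.665 and a rho of 0.633 (permutation p = 0.00307, adjusted p = 0.0431). Cdkn1a and Gadd45a had an r of 0.594 and a rho of 0.522 (permutation p = 0.00575, adjusted p = 0.0431). Ccng1 and Gadd45a had an r of 0.554 and a rho of 0.443 (permutation p = 0.0101, adjusted p = 0.0437), and Mdm2 and Ccng1 an r of 0.545 and a rho of 0.484 (permutation p = 0.0117, adjusted p = 0.0437). The permutation tests were two-sided over 100000 resamples.

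These calls were not kept by rank or in every alternative. By rho, 0 of 15 pairs passed (lowest adjusted permutation p = 0.0668). With RLE size factors, 2 of the 4 pairs passed, both with Gadd45a (Mdm2 and Cdkn1a). Without the 2 rats farthest from the median of the first gene, for which no p was computed, r was 0.742 for Mdm2 and Gadd45a, 0.453 for Cdkn1a and Gadd45a, 0.363 for Ccng1 and Gadd45a and 0.600 for Mdm2 and Ccng1. Without the 3 females of conflicting diet, r was between 0.535 and 0.566 for these 4 pairs, and 0 pairs passed. In single groups of 6 rats, Mdm2 and Gadd45a had an r of -0.14 in Male HFHS, 0.79 in Male Chow and 0.91 in Female HFHS. Cdkn1a and Gadd45a had an r of -0.14 in Male HFHS, 0.59 in Male Chow and 0.82 in Female HFHS. The other 2 pairs were negative in Female HFHS. Mdm2 and Ccng1 had an r of 0.89 in Male HFHS, 0.56 in Male Chow and -0.61 in Female HFHS, and Ccng1 and Gadd45a an r of 0.15 in Male HFHS, 0.91 in Male Chow and -0.56 in Female HFHS. Female Chow, with 5 rats including female 205 of conflicting diet, was positive for all 4 pairs. There r was 0.57 for Mdm2 and Gadd45a, 0.88 for Cdkn1a and Gadd45a, 0.92 for Mdm2 and Ccng1 and 0.78 for Ccng1 and Gadd45a. No pair with Phlda3 passed. It had an r of -0.31 and a rho of -0.55 with Cdkn1a (adjusted permutation p = 0.223 for r and 0.0668 for rho). Bax had no pair that passed.

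**Figure D4:**
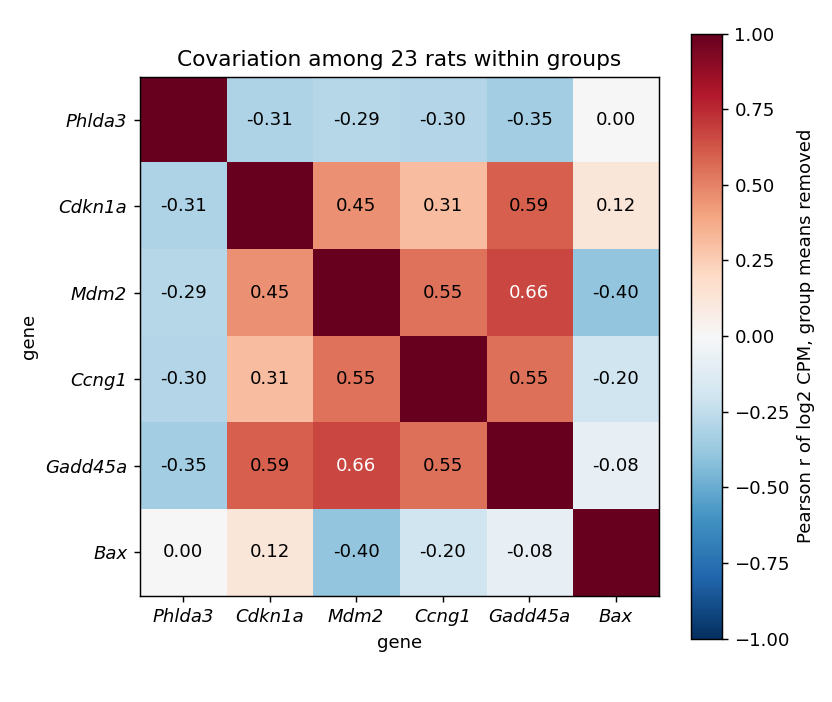
Pearson r between the log2 CPM of each pair of genes over 23 rats after removal of group means, from -1 (blue) to 1 (red). Mdm2, Ccng1, Gadd45a and Cdkn1a have positive values with each other over all 23 rats, although the pairs of Ccng1 with Mdm2, Cdkn1a and Gadd45a were negative within Female HFHS (-0.61, -0.59 and -0.56), and Phlda3 has values of -0.29 to -0.35 with these 4 genes.

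The genes whose levels followed Phlda3 and Cdkn1a most closely from rat to rat within groups were not on the p53 lists. Those lists hold 48 tested targets and 15 tested regulators among 13365 genes, so nothing is read from that absence. For Phlda3 they were Fam110d (r = 0.797), the splicing protein gene Snrpb (0.760), the Ras pathway scaffold Cnksr1 (0.753), the neurotrophic factor gene Nrtn (0.751) and Dpy19l3 (0.732). For Cdkn1a they were Crem, a cAMP-responsive transcription factor (r = 0.807), Pdlim3, a protein of the muscle Z disc (0.805), Pxdc1 (0.772), the phosphatase gene Dupd1 (0.755) and the transcription factor Ets2 (0.749). Each r is over 23 rats and was the highest among genes averaging at least 1 CPM. They are descriptions without a test, and female 202 enters each of those for Cdkn1a.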

How the data were processed

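RNA of 23 gastrocnemius samples was sequenced from poly-A libraries. After trimming in fastp, the authors mapped reads to the rn6 genome (STAR 2.7.6a) and used SeqMonk to count reads per gene. The deposited table holds these raw counts in whole numbers. The annotation release and the strand setting of the counting are not given in the sources used here. Entries without a gene name (16, holding 6.57e-05% to 0.000294% of the counts of a rat) were left out. Rats were grouped by the sex and diet codes of their columns, and no library was left out. No pair of the 253 pairs of libraries was identical.

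The count analysis used edgeR (4.0.16) in R (4.3.3). Low genes were removed with filterByExpr, libraries were scaled by TMM, and quasi-likelihood F tests were made on contrasts of 4 group means fitted over all 23 rats. The Benjamini-Hochberg adjustment ran over 13365 genes, with a threshold of 0.05. Where the text gives an adjusted p without a tool, it is this edgeR test. Differences are HFHS minus chow and males minus females, the interaction is the diet difference in males minus that in females, and levels are CPM. Log2 CPM used a prior count of 2. Correlations used residuals from group means, with rats permuted within groups. The procedures were tested on simulated data.

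The 6 genes and 17 lists (202 distinct genes, 12 not found) were chosen with earlier results of these data known. The genes named are the 6, the list members past the threshold (at most 4 by smallest p where over 5 passed), Mdm4, Alb and the 5 genes nearest to Phlda3 and to Cdkn1a. Pank1, Pml and the paralogs Cdkn1b, Cdkn1c, Ccng2, Bak1 and Bok were named after their values were seen. Cell type lists are given by counts, and some items that the rule names are not reported here.

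Alternatives were RLE size factors, a mean count above 0.1 as the filter, DESeq2 (1.42.0), limma-voom (limma 3.58.1) with quality weights, title diets, no conflicting rats, the hepatocyte level as a covariate, the title number as a block, exchanged male codes and each rat left out. Promoter sequences are from RefSeq (GRCr8) and figures from matplotlib (3.10.9) in Python (3.11.15). P values of the count tests set differences between groups against the spread among rats within groups. Those of the correlations give how often permuted rats reached an r or rho as large in size.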

Additional observations from a re-analysis of the deposited data

Results flagged for a closer look

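Within each group, each of the 6 genes was checked for a rat far from the others, in 24 sets of 5 or 6 values. Chance alone would mark about 1 in 20 sets if the values were normally distributed. The check used CPM, which need not be, and was not made on log2 CPM, where high values stand apart less. Both values marked were of Cdkn1a, in females. Female 202 on HFHS had 158.5 CPM, with a gap to the next rat of 0.692 of the group range. Female 205 on chow had 77.88 CPM, with a gap of 0.719 of the range, and is 1 of the 3 females whose title and code give opposite diets. Female 202 was also 1 of the 2 females with Alb at or below the highest male. The part of liver transcripts or of the labels in these values was not tested.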

How the results depend on the processing

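Of 246 log2 differences of the 6 genes under the alternatives other than leaving out a rat, 227 kept their sign and 19 changed it. With RLE size factors or the filter at a mean count above 0.1, no count of the 6 genes or of the other targets passed by diet or sex moved. In DESeq2, Phlda3 passed by diet in males (1 of 6) and in females (1 of 6), 1 of the other p53 targets passed by diet (Pank1) and 4 by sex. Over all 13365 genes in DESeq2, 24 passed by diet in males, 6 in females, 55 averaged over the sexes and 1611 by sex. By sex, 4 of the other targets passed as well in limma-voom, with title diets and without the 3 conflicting females, and 0 with the hepatocyte covariate. Over all genes these fits gave 1357, 1343, 1043 and 58 by sex. Of the 6 genes, 0 passed by diet over both sexes with title diets, with the hepatocyte covariate and with exchanged male codes, and 1 passed by sex with the covariate. Over all 13365 genes, these fits gave 0, 1 and 0 by diet, and the covariate fit gave 58 by sex. Pairs of genes past the correlation test numbered 0 without the 3 females and 2 with RLE size factors. The cause of these moves was not tested.

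Of the values that changed sign, Phlda3 by diet (-0.0225 with exchanged male codes) alone had passed over all rats. The others include Cdkn1a by diet in females with the hepatocyte covariate (-0.51), Cdkn1a by diet with exchanged male codes (0.60), Gadd45a by diet in females with title diets (0.36), the Phlda3 interaction in limma-voom (-0.0065), the Ccng1 interaction (-0.17) and the Gadd45a interaction (-0.46) with title diets, and the Gadd45a interaction without the 3 females (-0.24). Without the 3 females, r was -0.098 for Phlda3 and Bax and 0.034 for Gadd45a and Bax.

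With each rat left out in turn, the count of the 6 genes passed was 1 to 1 by diet averaged over the sexes, 0 to 0 in females, 0 to 1 in males, 2 to 3 by sex and 0 to 0 for the interaction. Of the other targets it was 0 to 1 by diet, 0 to 0 in females, 0 to 0 in males, 0 to 3 by sex and 0 to 0 for the interaction. With the deposited male codes, the interaction ranged from -0.0798 to 0.147 for Phlda3 and from -0.0983 to 0.206 for Gadd45a. It was not fitted with exchanged male codes.

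The numbers in the titles gave no sign of pairing the rats. Deviations from group means of same-numbered rats had an r of -0.274 to 0.00644 in males and -0.165 to -0.0247 in females. Of these rats, 0 correlated best with their own number. With 6 such pairs in males and 4 in females, the check cannot exclude a pairing. With that replicate number as a block, 0 of the 6 genes passed by diet (Phlda3 0.70 ± 0.12), 2 by sex, and 0 of the other targets by sex. Over all 13365 genes, 3 passed by diet and 964 by sex with the block.

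Group sizes of 5 or 6 limit each comparison, the labels of 3 females and the male codes limit the diet results, and sex cannot be told apart from surgery and estradiol.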
